A study of Homo sapiens with 3 samples.

Results

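Gene expression was compared between MDA-MB-231 cells that had arginine returned after a period of depletion and cells that were never depleted, to describe what had not come back to the untreated level or had passed it. The comparison used 2 of the 3 arrays of the series, chosen by their titles, and 11085 of 20039 genes with a named probe could be compared. MDA-MB-231 is an established human breast cancer line with basal and mesenchymal features, started from a pleural effusion. On the arginine return array the cells had been exposed for 24 h to 0.3 µg/ml ADI-PEG20, followed by 24 h with 420 µg/ml L-arginine. On the ADI-PEG20 array they had received the same dose for 48 h. The untreated cells had been kept for 48 h without either agent. All were grown in DMEM with serum and antibiotics, and each condition had 1 array with no replicate, so no difference below has a test and none has an error between cultures.

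In ADI-PEG20 the enzyme arginine deiminase, which breaks down arginine outside the cell, is coupled to polyethylene glycol. Cells that make little ASS1, the enzyme that joins citrulline and aspartate on the way to arginine, depend on arginine from the medium. When an amino acid runs short, uncharged tRNA activates the kinase GCN2, translation slows, and the transcription factor ATF4 turns on genes of amino acid synthesis, uptake and tRNA charging. When the amino acid returns, the growth-promoting kinase complex mTORC1 is active again, and its known outputs include the sterol, glycolytic and nucleotide synthesis programmes.

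Values are deposited array intensities, given for arginine return first, then ADI-PEG20 for 48 h, then untreated cells. Differences are in log2 of background-corrected intensity, arginine return minus untreated unless stated, and each gene is represented by its brightest probe. A probe counted as above background at an intensity over 163, and a gene was compared if its probe passed that limit on at least 1 of the 2 arrays. Both the difference after arginine and the difference under ADI-PEG20 were taken from the same untreated array, so an error on that array enters both. Probe intensities of different genes were not ranked against each other.

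The cells had leading markers of the labelled line, together with some luminal markers. VIM, the mesenchymal filament vimentin, had 16031 after arginine return and 15429 in untreated cells, and CD44, a stem-like and basal marker, had 6983 and 7614. ESR1 and PGR, the oestrogen and progesterone receptors, and FOXA1, a luminal transcription factor, were below the limit on every array. However, 14 of 20 luminal markers were compared, as were 14 of 19 basal and mesenchymal ones, with medians of 0.03 and -0.04. Luminal CDH1, KRT18 and CLDN4 were at 0.47, 0.38 and 0.45, and ZEB1, a mesenchymal factor, had 154 after arginine return, not above background, against 182 untreated. Of the leukocyte markers 5 of 13 with a probe were compared, of the endothelial markers 1 of 8 and of the fibroblast markers 4 of 10. PTPRC, CD3E, VWF, CDH5, PDGFRA and DCN were not above background on either array. Of the leukocyte markers compared, HLA-DRA had 2438 after arginine return and 2186 untreated, CD14 390 and 392, and CD8A 286 and 291. Of the fibroblast markers, PDGFRB had 211 and 201 and ACTA2 267 and 312. Of the luminal markers, EPCAM, an epithelial adhesion gene, was at 1002 after arginine return and 1009 untreated, and CDH1 at 293 and 245. GATA3, also luminal, passed the limit only under ADI-PEG20, at 174. In such bulk samples fewer cells of a kind and less RNA per cell cannot be told apart.

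Most genes were close to their untreated level 24 h after arginine. Within 0.32 of untreated on the log2 scale lay 81.1% of the 11085 genes, and within 1.5-fold 94.7%. The step of 0.32 is used below as the smallest difference counted. The median difference was -0.01, with 5394 genes higher and 5681 lower, and the central 95% of differences ran between -0.60 and 0.59. The SD over genes was 0.28 after arginine return, against 0.46 for ADI-PEG20 for 48 h. Past 2-fold were 41 genes on the high side (0.37%) and 37 on the low side (0.334%). At 1.5-fold the counts were 295 (2.66%) and 298 (2.69%). By comparison, of 11139 genes compared under ADI-PEG20, 195 (1.75%) were past 2-fold on the high side and 235 (2.11%) on the low side.

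The larger differences lay mainly among dim genes. The 593 genes past 1.5-fold in either direction had a median mean intensity of 163, against 411 over all genes compared, and 438 of them were not above background on 1 of the arrays. With dim values set at their bound, 3 genes remained past 2-fold upward and 1 downward. Above background on both arrays, 2 were 2-fold higher, GET3 and OAZ2, and 1 was lower, CREB3. Among 4875 genes with a mean intensity over 500, 7 (0.144%) were at least 1.5-fold higher and 2 (0.041%) lower, 93.7% lay within 0.32, and the SD was 0.17. Above a mean of 2000 the SD was 0.15 over 1438 genes and no gene was past 1.5-fold, against an SD of 0.30 over the 1314 genes above background with a mean under 200. The part of low signal in any single difference was not tested.

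**Figure D1:**
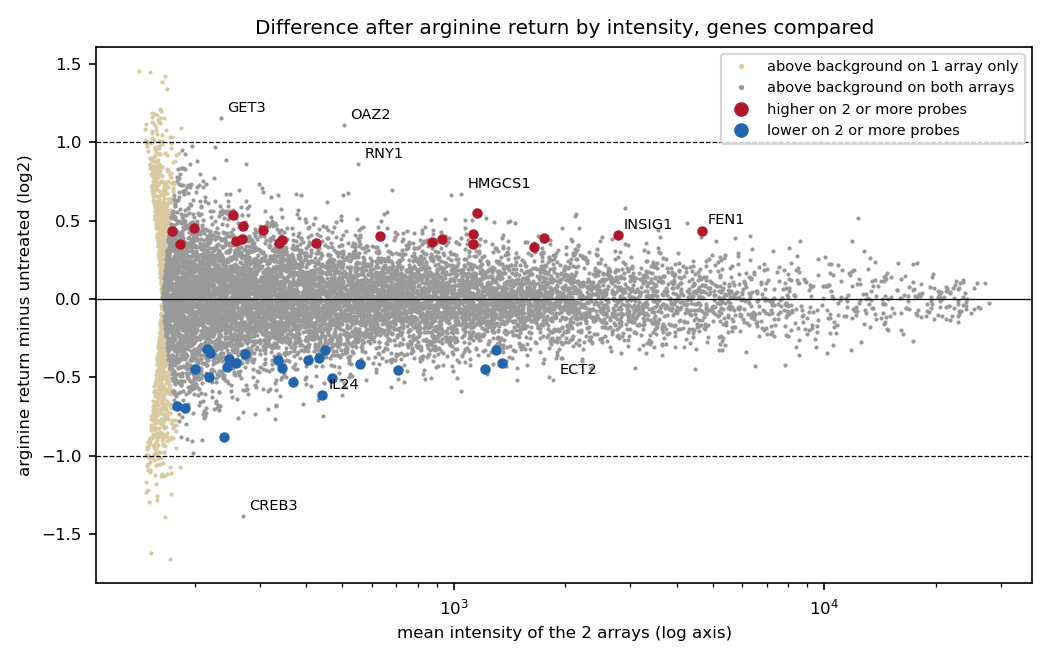
Difference between arginine return and untreated cells (log2) against the mean intensity of both arrays (log axis), 1 point per gene compared; dashed lines mark 2-fold. Genes above background on 1 array only spread widest, and the 21 genes higher (red) and 24 lower (blue) on 2 or more probes lie mostly within 1.5-fold.

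Genes with a second probe gave the only repeat measure on these arrays. Of 2630 genes with 2 or more probes above background on both arrays, 701 had every probe higher, 732 had every probe lower and 1197 (45.5%) had probes of different sign. For the brightest pair of probes the signs matched in 1551 genes (59.0%), and across these genes, which share the arrays and are not independent replicates, the probes' differences had a correlation of 0.193. Under ADI-PEG20 the corresponding values were 1917 of 2604 (73.6%) and 0.719. The SD over genes of the difference between these 2 probes, divided by the square root of 2, was 0.194 after arginine return. The SD over genes on the brighter probe was 0.196. When the brighter probe was past 1.5-fold, in 21 genes, the other had the same sign in 13 and none was past 1.5-fold on both.

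With every probe above background at least 0.32 to the same side, 21 genes were higher (0.798% of the 2630) and 24 lower (0.913%). FEN1, the flap endonuclease that trims lagging-strand fragments during DNA replication, was on the high side with strong signal. Its intensity was 5349 after arginine return, 2809 under ADI-PEG20 and 3989 untreated, and its second probe gave 1543, 898 and 1199. Both probes were thus lowest under ADI-PEG20 and above untreated after arginine, by 0.43 and 0.40. INSIG1, the endoplasmic reticulum protein that holds back the sterol-sensing SREBP complex, had 3145, 1574 and 2402 on its brighter probe. Its other probe gave 657, 334 and 412, a difference of 0.88 beside 0.41. SQLE, squalene epoxidase of cholesterol synthesis, had 966, 619 and 779 and differed by 0.36 and 0.43. INSIG1 and SQLE had the same order of the arrays as FEN1.

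Further genes were higher on each probe. RRAD, a small GTPase of the Ras superfamily, had 277, 218 and 229 and differed by 0.54 on both probes. ZNF69, a zinc finger gene, had 1349, 1060 and 961, with 0.55 and 0.48. TMEM45A, a transmembrane protein gene, had 704, 534 and 562, with 0.40 and 0.83. In each of these the arginine array was the highest of the 3. WT1, the Wilms tumour transcription factor, had 288, 183 and 249 on its brighter probe and 310, 163 and 246 on the other, and CD34, a sialomucin of progenitor cells and vessels, had 275, 186 and 240. Their ADI-PEG20 values were the lowest of the 3, and their differences after arginine were 0.38 and 0.59 for WT1 and 0.37 and 0.51 for CD34. OPA3, a mitochondrial membrane protein gene, differed by 0.44 and 0.49, and LNPK, which stabilises junctions of the endoplasmic reticulum, by 0.36 and 0.52. REX1BD, the pseudogene OR7E156P, INTS13 of the Integrator complex, ZNF700 and PRKX each had a weaker probe between 0.35 and 0.38.

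Among genes lower on each probe, IL24, a cytokine of the IL10 family, had the steepest course. Its intensity was 374 after arginine return, 1400 under ADI-PEG20 and 509 untreated, and its second probe read 169, 353 and 192. Both probes were highest under ADI-PEG20 and below untreated after arginine, by -0.62 and -0.58. NDUFAF4, an assembly factor of respiratory complex I, had 615, 1072 and 798, with differences of -0.45 and -0.43. SNX24, a sorting nexin, had 495, 1003 and 621, with -0.42 and -0.39. FBXO30, a ubiquitin ligase subunit, had 306, 450 and 363, with -0.39 and -0.50. These genes had the mirror image of the order seen for FEN1.

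Several genes lower on each probe after arginine were also lower under ADI-PEG20, among them ARHGEF39, NNT and VAMP4. ARHGEF39 was near background, with 172, 156 and 204 on its brightest probe, the ADI-PEG20 value being below the limit. Its 2 usable probes were at -0.70 and -0.55 after arginine return and at -1.22 and -0.92 under ADI-PEG20. NNT, the mitochondrial transhydrogenase that makes NADPH, had 1045, 1063 and 1384, and its other probe 508, 494 and 619. The differences from untreated were -0.45 and -0.36 after arginine return and -0.42 on both probes under ADI-PEG20. VAMP4, a vesicle fusion protein of the trans-Golgi network, had 408, 383 and 528, with -0.51 and -0.50. BRWD1, a bromodomain protein gene, had 323, 358 and 413, with -0.53 and -0.51. In NNT and VAMP4 the arginine value was near the ADI-PEG20 value, while BRWD1 was at -0.30 and -0.06 under ADI-PEG20. TRIM36, a ubiquitin ligase gene, was near background at 165, 181 and 192. For TMEM128, INTU, LARP1B, ANKRA2, TAFAZZIN and RBM24 the weaker probe lay between -0.47 and -0.38. Under ADI-PEG20 the probes of TMEM128 were at 0.17 and 0.16, and those of INTU, LARP1B and ANKRA2 differed in sign. The same probes of TRIM36, TAFAZZIN and RBM24 were all lower than untreated under ADI-PEG20.

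**Figure D2:**
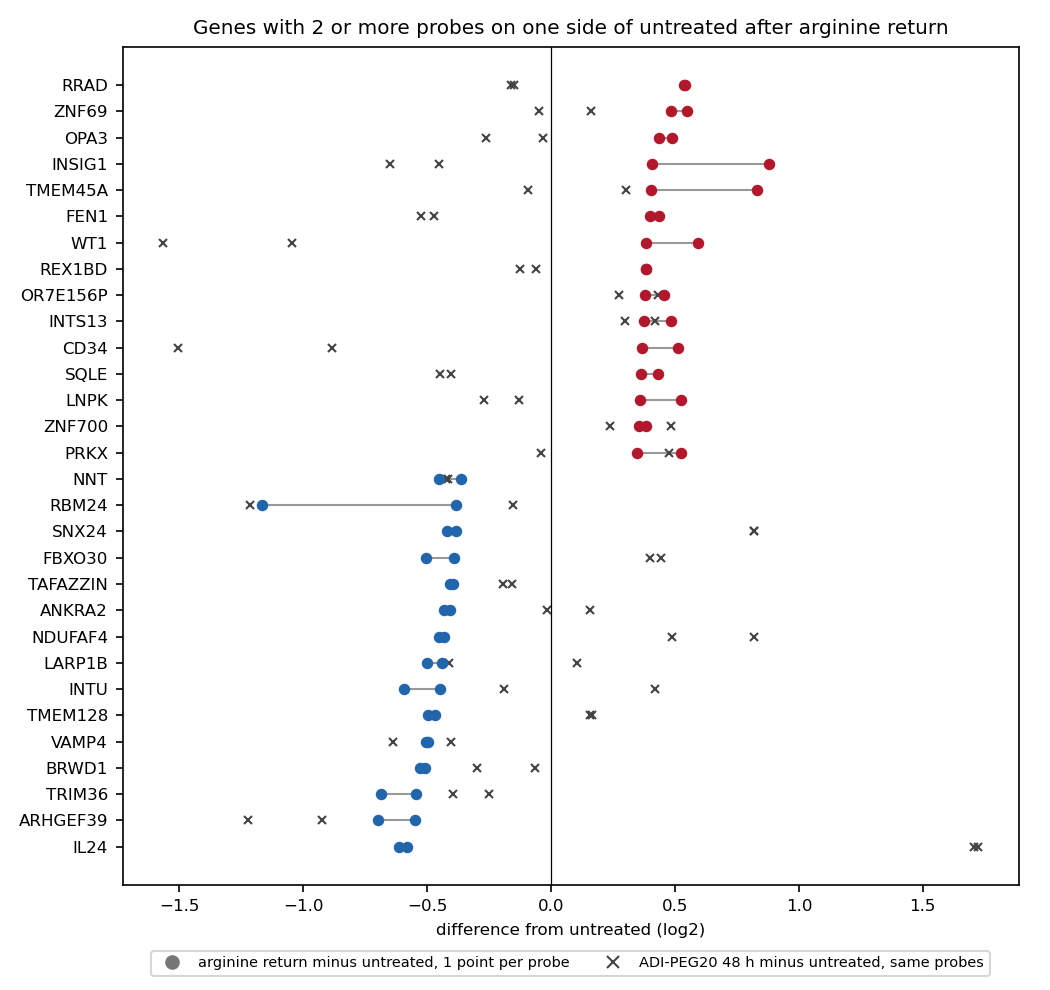
Differences from untreated (log2) for the 15 genes in each direction with the strongest weakest probe; filled points are arginine return, 1 per probe above background, and crosses are ADI-PEG20 for 48 h on the same probes. RRAD and REX1BD have probes that nearly coincide, INSIG1 spans 0.41 to 0.88, and IL24 lies at -0.62 and -0.58 after arginine with crosses at 1.72 and 1.71.

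Cholesterol synthesis was the gene group with the highest median. Of 22 enzymes on the list, 19 had a probe and all 19 were compared; 16 were higher and 3 lower, with a median of 0.26, and 8 were higher by at least 0.32 and 0 lower by that much. Over all genes compared, 9.44% were higher by at least 0.32 and 9.47% lower, and the median was -0.01. Under ADI-PEG20 the same list had a median of -0.23, with 4 higher and 15 lower. Of the 6 list members with 2 or more usable probes, 3 had every probe higher and none had every probe lower. Of all 2630 such genes, 701 had every probe higher and 732 every probe lower.

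HMGCS1, MVD and MVK, all before the sterol ring is made, were the members past 1.5-fold. HMGCS1, which makes the substrate of HMG-CoA reductase, had 1257 after arginine return, 613 under ADI-PEG20 and 836 untreated, a difference of 0.67. MVD, which decarboxylates mevalonate diphosphate to isopentenyl diphosphate, had 319, 243 and 230, a difference of 0.86. MVK, mevalonate kinase, had 296, 254 and 238, a difference of 0.59. Without background correction MVD was at 0.47 and MVK at 0.32, so neither was past 1.5-fold. PMVK, which acts between them, had 592, 564 and 571 (0.07). IDI1, the isomerase of the following step, had 1687, 1085 and 1238 (0.49), and ACAT2, the thiolase that opens the pathway, had 4442, 1886 and 3852 (0.21, with -0.02 on a dimmer probe).

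Among the sterol-making steps, SQLE was given above. MSMO1, which removes methyl groups from the sterol ring, had 1760, 1183 and 1394, and its 3 probes gave 0.36, 0.35 and 0.30. DHCR7, of the last steps, had 1498, 965 and 1253, with 0.28 and 0.20 on its probes. NSDHL and HSD17B7, partners in demethylation, were at 0.35 each. At their untreated level were FDPS, which makes farnesyl diphosphate, at 715 against 719, GGPS1, of the branch to geranylgeranyl diphosphate, at 1408 against 1404, and the sterol reductase genes TM7SF2 and LBR, each at 0.00. FDPS had been at 422 under ADI-PEG20. LSS, lanosterol synthase, had probes of different sign, 0.20, -0.25 and 0.37 from the brightest down.

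Regulators and exporters of sterol lay on both sides of untreated. Over 14 genes the list of regulators and uptake had a median of -0.01, with 6 higher and 8 lower. By at least 0.32, 2 were higher (14.3%) and 3 lower (21.4%), beside 9.44% and 9.47% of all genes compared. INSIG2, the paralogue of INSIG1, had 919, 634 and 718 (0.42), and SREBF1, which encodes an SREBP transcription factor, had 621, 635 and 625. SREBF2, which encodes the SREBP that acts chiefly on cholesterol genes, had 163 after arginine return, not above background there, against 195 under ADI-PEG20 and 192 untreated. After background correction that is at least 1.69-fold lower on its only probe, and without correction the difference was -0.24 in log2. ABCA1, the exporter of cholesterol to lipoproteins, had 622, 1150 and 845 (-0.53), and ABCG1, another exporter, had 189, 212 and 208 (-0.36). ABCG1 was near background, with 1 of its 5 probes above it, and without correction its difference was -0.14. These 2 exporters, each read on 1 probe, were thus lowest on the array on which most synthesis enzymes were highest.

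**Figure D3:**
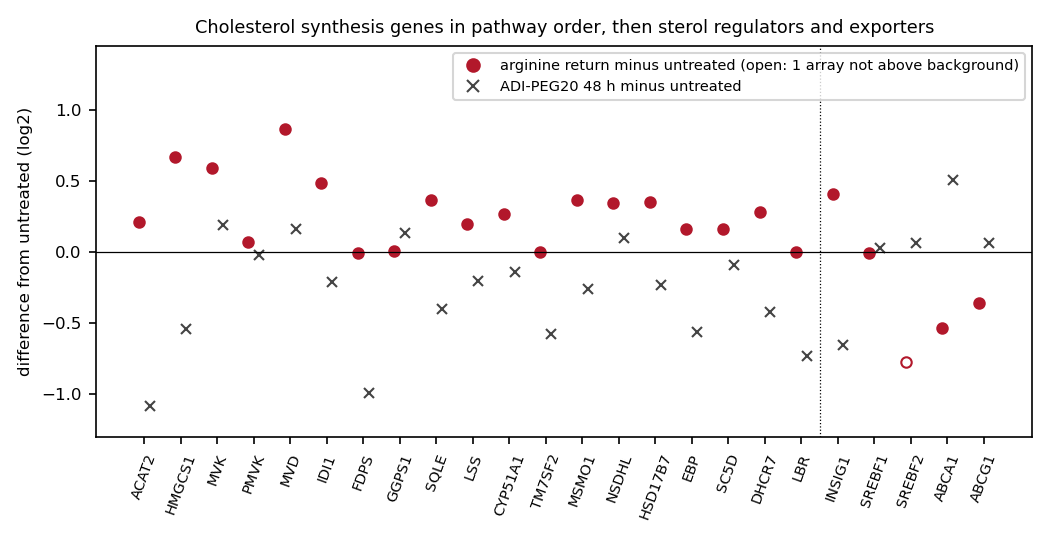
Difference from untreated (log2) of each cholesterol synthesis gene in pathway order, then of INSIG1, SREBF1, SREBF2, ABCA1 and ABCG1 right of the dotted line; filled circles are arginine return, crosses ADI-PEG20 for 48 h, and the open circle marks SREBF2, not above background after arginine. HMGCS1, MVK and MVD lie highest, at 0.67, 0.59 and 0.86, and FDPS, GGPS1, TM7SF2 and LBR lie at zero.

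Stretches of the promoters of the genes past 1.5-fold, and of INSIG1, are shown because these genes lay above untreated in the same pathway. They are from RefSeq on build GRCh38.p14, written on the gene's strand, with each CCAAT box on either strand (CCAAT or its complement ATTGG) in capitals. MVD is shown for chr16:88663147-88663266 (minus strand), HMGCS1 for chr5:43313483-43313582 (minus strand), the upstream of its 2 listed starts, MVK for chr12:109573569-109573768 (plus strand) and INSIG1 for chr7:155297693-155297842 (plus strand).
MVD: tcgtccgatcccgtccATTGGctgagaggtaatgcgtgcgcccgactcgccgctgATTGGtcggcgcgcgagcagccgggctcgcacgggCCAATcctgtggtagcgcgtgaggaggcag
HMGCS1: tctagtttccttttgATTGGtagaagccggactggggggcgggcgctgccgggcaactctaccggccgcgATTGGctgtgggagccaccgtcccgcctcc
MVK: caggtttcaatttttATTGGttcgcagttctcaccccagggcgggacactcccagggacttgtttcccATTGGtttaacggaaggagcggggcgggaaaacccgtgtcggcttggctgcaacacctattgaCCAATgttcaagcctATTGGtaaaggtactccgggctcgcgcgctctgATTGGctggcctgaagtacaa
INSIG1: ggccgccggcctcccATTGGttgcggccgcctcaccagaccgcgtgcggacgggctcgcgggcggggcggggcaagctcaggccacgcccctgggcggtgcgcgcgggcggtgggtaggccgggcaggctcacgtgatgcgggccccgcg
The stretches hold 3, 2, 5 and 1 CCAAT boxes in that order, and the downstream start of HMGCS1 holds 0 in its window. Counted over the 300 bases given for each start, 16 of 24 promoters of the cholesterol list (66.7%, from 17 genes with a promoter) hold CCAAT, against 35.5% of 13021 promoters of all genes compared and 34.6% of all 35116 promoters. Genes higher on 2 or more probes had it in 10 of 26 promoters (38.5%) and genes lower on 2 or more probes in 5 of 23 (21.7%). The core letters of a sterol regulatory element, TCACNCCAC, were in 0 of the 24, beside 1.08% of promoters of all genes compared, and CACGTG, the E-box that matches its own complement, in 3 of 24 (12.5%), beside 9.49%. The letters TGATGNAAN, written for an amino acid response element, were in 0 of the 24, beside 1.94%. All motifs were searched on both strands, matches of different motifs were counted separately even where they overlapped, and a match is a description of the letters only. Only exact matches were counted, so 0 matches does not show that an element with variant letters is absent.

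Fatty acid synthesis and desaturation genes lay to the same side by less. Of 16 compared, 13 were higher and 3 lower, with a median of 0.13 after arginine return and 0.01 under ADI-PEG20. FADS1, a desaturase of polyunsaturated fatty acids, had 2412 after arginine return, 2113 under ADI-PEG20 and 1924 untreated (0.35). FADS2, its partner, had 305, 198 and 265 (0.35), and FADS3, a related desaturase, 206, 184 and 187 (0.38). SCD, which makes monounsaturated fatty acids, had 8909, 8605 and 7140 (0.32), so SCD and FADS1 were above untreated on both treated arrays and FADS2 only on the arginine array. FASN, fatty acid synthase, was at 0.14.

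Hypoxia-induced genes had the second highest median, 0.22 over 28 genes compared, with 22 higher and 6 lower and 12 higher by at least 0.32 (42.9%, beside 9.44% of all genes compared). Under ADI-PEG20 their median was -0.30. EGLN1, the oxygen-sensing hydroxylase that marks HIF for degradation, had 474 after arginine return, 269 under ADI-PEG20 and 368 untreated (0.52). ANKRD37 had 509, 281 and 407 (0.44), and NDRG1, a stress-responsive differentiation gene, 4068, 2073 and 3035 (0.44). In each the untreated value lay between the treated values. BNIP3, a mitophagy receptor, had 13337, 5390 and 10373 (0.37), and the collagen-modifying enzyme genes PLOD2 and P4HA1 were at 0.39 and 0.35. STC1, a secreted glycoprotein of calcium and phosphate handling, had 1222, 412 and 987 (0.35). VEGFA, the vascular growth factor, was at -0.08, with 486, 728 and 506.

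Of 23 glycolysis genes, some of them also on the hypoxia list, the median was 0.12, with 18 higher and 4 lower, against -0.34 under ADI-PEG20. Of the 12 members with 2 or more usable probes, 7 had every probe higher and 1 every probe lower, beside 701 and 732 of all 2630 such genes. ENO2, an enolase, had 1531 after arginine return, 711 under ADI-PEG20 and 1185 untreated (0.41). PFKFB4 and PFKFB3, which set the level of the activator of phosphofructokinase, were at 0.34 and 0.33, the second with 0.64 on its other probe. PKM, pyruvate kinase, had 6431, 4096 and 5263 and gave 0.30, 0.27 and 0.44 on its 3 probes. ALDOA, an aldolase, gave 0.28 and 0.18.

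DNA replication genes lay slightly above untreated and mitosis genes slightly below. Of 47 replication genes 32 were higher and 15 lower, with a median of 0.10, and of 44 mitosis genes 7 were higher and 37 lower, with a median of -0.17. Under ADI-PEG20 the medians were -0.53 and -1.04. Of 17 mitosis genes with 2 or more usable probes, 2 had every probe higher and 10 every probe lower, and of 17 such replication genes 7 and 2. Over all 2630 genes with such probes the counts were 701 and 732. RRM2, which makes deoxynucleotides, had 924 after arginine return, 436 under ADI-PEG20 and 742 untreated (0.37), and ORC1, of the origin recognition complex, was near background at 224, 175 and 195 (0.47). POLA2, a subunit of the polymerase that primes replication, went against its list, with 430, 300 and 563 (-0.51).

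In mitosis the members furthest from untreated were lower by at least 0.32, 7 of 44 (15.9%, beside 9.47% of all genes compared). ECT2, the exchange factor that starts cytokinesis, had 1546 after arginine return, 1067 under ADI-PEG20 and 2164 untreated (-0.52). KIF18A, a kinesin that limits chromosome movement, had 416, 325 and 535 (-0.49), and CENPF, a kinetochore protein gene, 1279, 783 and 1692 (-0.44). AURKA, a spindle kinase, had 4721, 2199 and 5895, with -0.33 and -0.28 on its probes. These values lay between the ADI-PEG20 and untreated values. TOP2A, which untangles chromosomes, had 5816, 2420 and 6023 (-0.05), and CDK1, the kinase of mitotic entry, had 3152, 1912 and 3189 (-0.02), both next to untreated.

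**Figure D4:**
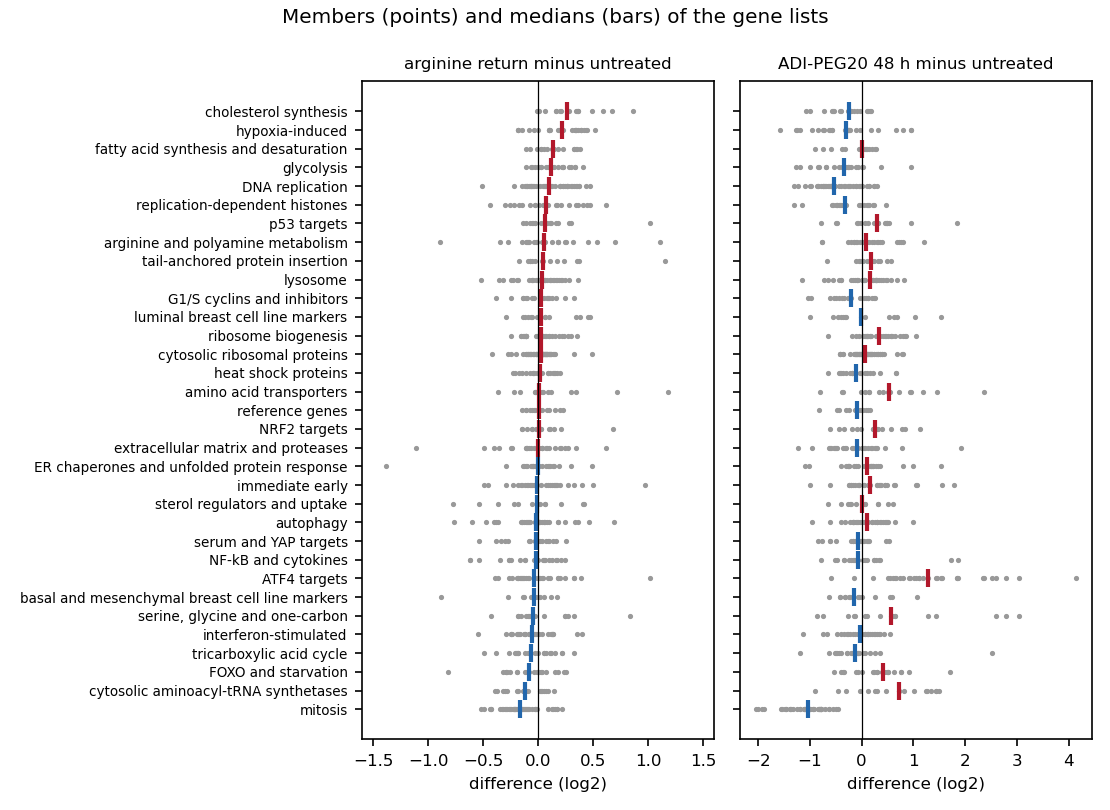
Differences of members (grey points) and medians (bars, red above 0 and blue below) of the gene lists with at least 10 genes compared, for arginine return minus untreated (left) and ADI-PEG20 for 48 h minus untreated (right), both in log2 and on different scales, with lists ordered by the left panel. Cholesterol synthesis (0.26) and hypoxia-induced genes (0.22) are at the top and mitosis (-0.17) at the bottom of the left panel.

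Genes of the amino acid response were near untreated as a group. The 32 ATF4 targets compared had a median of -0.03, with 15 higher and 17 lower, against 1.28 under ADI-PEG20. ASNS, asparagine synthetase, had 665 after arginine return, 9722 under ADI-PEG20 and 664 untreated, with 0.00 and -0.19 on its probes. ATF4 itself had 7147, 14772 and 7338. By at least 0.32, 4 were higher (12.5%) and 2 lower (6.25%), beside 9.44% and 9.47% of all genes compared. DDIT4, an inhibitor of mTORC1, had 6520, 8577 and 4999 (0.39). The others of the 4 were SESN2, a leucine sensor, at 169 against an untreated value below background, and PHGDH and NUPR1, at 0.32 each. With the untreated value set at its bound, SESN2 was at 0.20, inside the step. DDIT3, which encodes the stress factor CHOP, had 599, 854 and 747 (-0.39).

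Cytosolic aminoacyl-tRNA synthetases, which load amino acids onto tRNAs, had a median of -0.12 over 18 genes, with 7 higher and 11 lower. By at least 0.32, 2 were lower (11.1%, beside 9.47% of all genes compared). Under ADI-PEG20 the median was 0.73. YARS1, for tyrosine, had 1214 after arginine return, 4174 under ADI-PEG20 and 1557 untreated (-0.39). EPRS1, for glutamate and proline, had 1661, 3437 and 2119 (-0.38), and AARS1, for alanine, 1625, 4626 and 1994 (-0.32). NARS1, for asparagine, was at -0.30 and IARS1, for isoleucine, at -0.28, while WARS1, for tryptophan, was at 0.03 and RARS1, for arginine, at 0.05. The genes named on the low side were highest under ADI-PEG20 and lowest after arginine.

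ASS1 was above its untreated level by an amount that depended on the probe. The brightest probe had 576 after arginine return, 1042 under ADI-PEG20 and 522 untreated (0.18), and the second 484, 932 and 353 (0.65). The other was not above background on any array, with 146 after arginine return and 153 untreated. For arginine and polyamine metabolism the median was 0.05 (25 genes), with 14 higher and 11 lower. OAZ2, an antizyme that directs ornithine decarboxylase to degradation, had 645, 546 and 364, a difference of 1.11 on its only probe. Both treated arrays lay above the untreated one. OAZ1, the main antizyme gene, had 19356, 20615 and 19533. ODC1, ornithine decarboxylase, had 2279, 4522 and 2733 (-0.28), and AMD1, which makes decarboxylated S-adenosylmethionine, 706, 622 and 547 (0.46). NAGS, the mitochondrial N-acetylglutamate synthase, was at 156 after arginine return, not above background there, against 190 and 187. After background correction that is at least 1.57-fold lower, and without it the difference was -0.26 in log2.

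The remaining lists with at least 10 genes compared had medians between -0.09 and 0.07. Interferon-stimulated genes had -0.05 over 33 genes, with 10 higher and 23 lower; IFI44L was at -0.54 on its brighter probe and 0.30 on the other, and IFITM3, an antiviral membrane protein gene, had 7179 after arginine return, 5739 under ADI-PEG20 and 5467 untreated (0.40). NF-kB and cytokine genes had -0.02 over 22, in which IL11, a cytokine of the IL6 family, had 420, 508 and 580 (-0.62). Cytosolic ribosomal proteins had 0.02 over 64 genes, with RPL28 at 0.49 and RPL7A at -0.42. Under ADI-PEG20 they were at 0.78 and -0.42. In the tricarboxylic acid cycle the median was -0.07 over 23 genes, and SUCLG2, a subunit of succinyl-CoA ligase, had 1523, 1550 and 2099 (-0.50). FOXO and starvation genes had -0.09 over 22, ER chaperones 0.00 over 24, with the disulfide isomerase gene PDIA6 at 0.49, and reference genes 0.01 over 15, with PGK1 at 0.22.

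Genes that had not come back were then read from those at least 2-fold from untreated under ADI-PEG20 and above background on all 3 arrays. They were selected against the same untreated array, so an error on it adds to the counts still higher and still lower. Its part in these counts was not tested. Of 109 higher under ADI-PEG20, 78 (71.6%) lay within 0.32 of untreated after arginine, 25 were still higher by at least 0.32 and 6 were below untreated by at least 0.32. At 1.5-fold, 8 were still higher and 1 was below, IL24. The median difference of the 109 was 0.04 after arginine return and 1.245 under ADI-PEG20. Of 165 lower under ADI-PEG20, 126 (76.4%) lay within 0.32, 33 were still lower by at least 0.32 and 6 were above untreated by at least 0.32. At 1.5-fold, 5 were still lower and 0 were above. Their medians were -0.13 and -1.19. Over all 11085 genes compared, including those above background on 1 array only, 81.1% lay within 0.32 after arginine. By at least 0.32, 9.44% of these were higher and 9.47% lower, and at 1.5-fold 2.66% and 2.69%.

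Genes still on the high side were mostly dim. DMKN, a secreted protein gene of skin, had 349 after arginine return, 716 under ADI-PEG20 and 264 untreated, and its 3 probes gave 0.68, 0.36 and 0.19. JUNB, an AP-1 transcription factor, had 220, 227 and 172 (0.97), close to its ADI-PEG20 value. CTBP2, a transcriptional corepressor, had 342, 389 and 254 (0.73), but a second probe gave -0.50. GTPBP10 and CPT1A, the carrier enzyme of mitochondrial fatty acid entry, were at 0.73 and 0.69, with -0.05 and -0.28 on their other probes. TCEANC2, SERPINB9 and AKAP8L were at 0.71, 0.64 and 0.63, each under an intensity of 300. At higher intensity and just inside 1.5-fold, chosen after the values were seen, SLC31A1, the copper importer, had 764, 1099 and 559 (0.55).

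On the low side, CREB3, a membrane-bound transcription factor released from the endoplasmic reticulum, had 203 after arginine return, 222 under ADI-PEG20 and 336 untreated. Its difference of -1.38 was the most negative of any gene with signal above background on both arrays, and the treated arrays lay together. SHPK, sedoheptulokinase, had 362, 289 and 498 (-0.65). SLAIN1, SEMA3B, HDAC8 and PIP4P2 were at -0.72, -0.70, -0.68 and -0.58, of which SLAIN1, a microtubule-associated protein gene, had -0.18 on its other probe.

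Genes on the opposite side of untreated from their ADI-PEG20 value lay there by less. Beside IL24, YARS1 and AARS1, these were TXNIP, which binds thioredoxin and restrains glucose uptake, with 3067 after arginine return, 11848 under ADI-PEG20 and 3712 untreated (-0.29), and TUBE1, an epsilon tubulin, with 202, 469 and 230 (-0.42). CMTR2, an mRNA cap methyltransferase, was at -0.34. DEFB103A, a defensin, at -0.53, and CREBRF, at -0.33, had other probes at 0.50 and 0.21. In the other direction were WT1, STC1 and PFKFB4, given above, and CDKN2D, a cell cycle inhibitor, with 958, 447 and 788 (0.33). So were ABCA7, with 398, 227 and 338 (0.35), and SPDEF, with 266, 178 and 235 (0.34). DENND2A had 876, 319 and 745 (0.28), and MXD3, a MAX partner, 379, 186 and 334 (0.27). AARS1 (-0.317), TXNIP, DENND2A and MXD3 lay inside the step of 0.32, so they are counted above as within it.

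**Figure D5:**
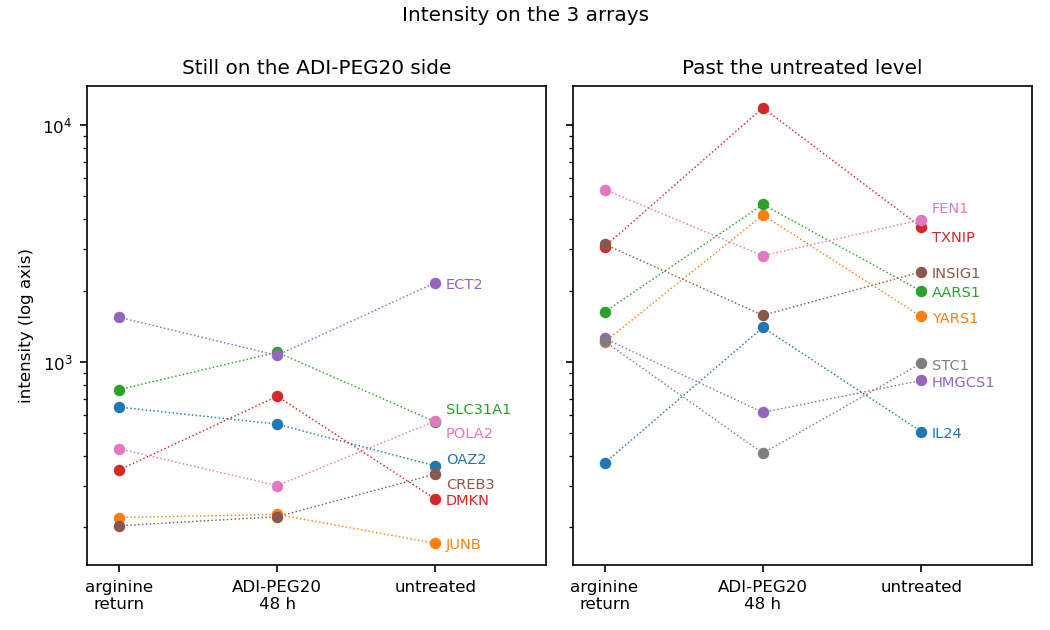
Intensity (log axis) on the arginine return, ADI-PEG20 48 h and untreated arrays, 1 array each; dotted lines join the values of a gene and are no time course. On the left, JUNB and CREB3 stay by their ADI-PEG20 values while ECT2, POLA2 and DMKN lie between. On the right, IL24, YARS1, AARS1 and TXNIP are below untreated, AARS1 and TXNIP by less than the step of 0.32 in log2. HMGCS1, INSIG1, FEN1 and STC1 are above untreated.

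Genes with 1 probe have no second reading. GET3, the ATPase that delivers tail-anchored proteins to the endoplasmic reticulum, had 278 after arginine return, 226 under ADI-PEG20 and 192 untreated (1.15). RNY1, a small noncoding Y RNA, had 678, 443 and 428 (0.86), and ZNF426 had 260, 233 and 192 (0.97). NCMAP and TSPAN1 were at 0.95 and 0.92 with intensities under 210. On the low side RNF141 had 183, 283 and 236 (-0.90) and GABARAP, an ATG8 protein of autophagosomes, 275, 354 and 383 (-0.77). RGMA, CHML, ZNF121, AFAP1L1 and NUDT8 lay between -0.98 and -0.75.

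Where other probes existed, large differences often lacked a match. SIPA1 gave 1.02 on a dimmer probe and -0.23 on its brighter one, PARD6A 0.90 and -0.09, and EIF4E3 0.89 and -0.34. KLF10, a TGF-beta-induced factor, gave -0.89 and 0.02, and HSPA13 -0.86 and 0.09. Of the 9 genes past 1.5-fold at a mean intensity over 500, OAZ2, RNY1, HMGCS1, NRBF2 (0.68), EHBP1L1 (0.67), GPKOW (0.66) and IL11 had 1 probe. CMKLR2 (0.69) and SDHAF3 (-0.59) had other probes at -0.03 and 0.04, so no gene in this set had a second probe of like size.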

How the data were processed

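Biotin-labelled cRNA from total RNA was measured on Illumina bead arrays of 1 colour, as the labels' protocols state. The authors deposited a table of intensity for 47231 probes on a linear scale; per the submitters' processing notes the software was GenomeStudio, with no version. Equal minima, maxima and near-equal medians showed a shared distribution across the 3 arrays, so a change in total RNA per cell cannot be seen. How the authors normalized and whether they subtracted background is not given in the sources used here. A table before normalization, with 6 columns of per-sample values matching no single label, was not used.

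Intensities were background-corrected by normexp (background mode 137, SD 8.74, exponential mean 425), raised by an offset of 16 and log2-transformed. Probes over the mode plus 3 SDs (163) were above background, 38.1% on each array. The platform annotation gave 1 gene for 30113 probes, several for 8 and none listed for 17110; symbols were updated through RefSeq. Where a gene was above background on 1 array, the fold is a bound against the limit or the dim value, whichever is higher. The difference was counted at 2-fold and 1.5-fold, and for genes with 2 or more probes at 0.32 in log2 on each. No test was run, as each condition had 1 array, and the number of arrays limits the precision.

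Members and the 36 gene lists were chosen with earlier results of these data known. The rule took 15 genes per direction by their weakest probe, 8 per direction with a single probe, 5 with probes of opposite sign, 8 per direction and side among genes past 2-fold under ADI-PEG20, 3 per list, and ASS1 and ASNS. Other genes named were chosen after their values were seen. Unnamed loci and open reading frames were skipped. The sterol motif was searched without its outermost base, a choice made after the design. The steps were tested on simulated data in Python 3.11.15 with numpy 2.4.6, pandas 2.3.3 and scipy 1.17.1. Alternatives were no background correction, an offset of 50, a limit of 5 SDs, above background on both arrays, the mean over probes, no filter on dim genes, centred arrays and, added after seeing the data, a mean intensity over 500.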

Additional observations from a re-analysis of the deposited data

Results flagged for a closer look

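The gene comparison did not use 3368 probes that had no gene listed in the platform annotation and were above background on both arrays. Of these, 1 was at least 2-fold higher after arginine return and 0 were at least 2-fold lower. The highest of these probes differed by 1.03 and the lowest by -0.96. At 1.5-fold, 50 of the 3368 were higher and 47 lower. Among the 10095 named genes above background on both arrays, each read on its brightest probe, 81 were higher and 74 lower at 1.5-fold.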

How the results depend on the processing

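Of the named genes that differed by at least 0.32 in log2, COL6A2, at 0.19, and EIF4E3, at 0.27, changed sign with the mean over probes, and the others kept their sign under each alternative in which they were compared. Sizes were less stable: of 278 named genes compared, 76 moved by more than the SD between probes without background correction, 38 with an offset of 50 and 29 with the mean over probes. Without correction CREB3 was at -0.72, GET3 at 0.54 and JUNB at 0.36. The counts depended on how dim signal was treated. In what follows a pair gives genes higher and then lower after arginine return. Without background correction, which leaves the background in both values, the counts were 0 and 0 at 2-fold, 4 and 1 at 1.5-fold, and 3 and 0 on 2 or more probes. An offset of 50 gave 1 and 1, 40 and 29, and 10 and 11. Under both of these settings, 0 genes higher under ADI-PEG20 stayed 1.5-fold higher or passed 1.5-fold below untreated, and 0 lower genes stayed 1.5-fold lower. A limit of 5 SDs gave 10 and 10 at 2-fold and 118 and 111 at 1.5-fold, 13 genes lower on 2 or more probes, and 3 still higher and 3 still lower of the genes past 2-fold under ADI-PEG20. Genes above background on both arrays gave 2 and 1, and 81 and 74. The mean over probes left 4 still higher, 2 passed below and 3 still lower. With no filter on dim genes, 523 and 475 genes were past 1.5-fold and 68 and 51 on 2 or more probes, with 29 still higher, 2 passed below, 44 still lower and 1 passed above. A mean intensity over 500, chosen after seeing the data, gave 1 and 0 at 2-fold, 7 and 2 at 1.5-fold, 6 and 3 on 2 or more probes, and 0 still higher, 0 passed below and 0 still lower. Centring the arrays moved no count by over 1.5 times. The median of cholesterol synthesis genes ranged from 0.21 to 0.27 over the alternatives, of hypoxia-induced genes from 0.18 to 0.28 and of mitosis genes from -0.19 to -0.14. No paired analysis was possible because each condition had 1 array. Probes near background carry little information, and 1 array per condition gives no measure of variation between cultures.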
